A study of Mus musculus with 8 samples.

Results

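The 10 mRNAs described here are Vegfa, Hif1a, Dll4, Bcl2, Birc3, Plk3, Pim1, Pim3, Irs1 and Star, which have been reported in other tissues as targets of ZFP36 proteins. They were taken by symbol from the deposited table of raw counts, which holds 25239 genes. All 10 were found there, and all 10 passed the filter on low counts that left 14861 genes for testing. RNA came from livers of adult male mice. The 4 knockout libraries were labelled Zfp36l1 fl/fl Alb-Cre+, meaning floxed Zfp36l1 (its alleles flanked by loxP sites) together with a Cre recombinase that the albumin promoter drives, mainly in hepatocytes. The 4 control libraries were labelled Zf36l1 fl/fl, with the gene spelled in that way, and their genotype field reads WT. Both groups carry the floxed alleles, and the labels name Cre for the knockout libraries alone, so Cre and the deletion cannot be told apart. Endothelial, stellate and immune cells of the liver do not normally use the albumin promoter, so this Cre does not target the gene in them. No treatment is named. The libraries are numbered without a statement that they are separate mice, and the p-values below describe only the spread among these libraries, which may be technical. Libraries of 1 group differed far beyond counting noise, with a chi-square per gene of 82.8 to 370, so none is a repeat count of another, but this does not tell separate mice from technical repeats of the library preparation.

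ZFP36, ZFP36L1 and ZFP36L2 are zinc finger proteins that recognise AU-rich elements in mRNAs, mostly in the 3′ untranslated region (UTR), and recruit the enzymes that shorten the poly(A) tail, which leads to decay. Their reported targets include short-lived mRNAs of growth factors, survival proteins, kinases and regulators of steroid synthesis. The core of the preferred binding site is UAUUUAU, often found within the longer UUAUUUAUU. Total RNA levels were measured here, not decay rates.

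The libraries held 120200618 to 140582588 counts in the knockout group and 104842873 to 132017092 in the control group. Zfp36l1 itself (chromosome 12, 80107754 to 80113013, minus strand, mm10) fell to 65.1 ± 8.97 CPM (counts scaled to library size) in knockout livers, against 259 ± 47.9 CPM in control livers (SD, n = 4 each), which is 25.1% of the control level. Its log2 fold change was -1.99 (adjusted p = 0.000309). Permuting the libraries over all 70 assignments in an exact test, two-sided, gave p = 0.0286, the smallest it can give. Those assignments disregard the shared replicate numbers, and exact swaps within the 4 same-numbered pairs gave p = 0.125, the smallest that 16 swaps can give. CPM values were scaled by trimmed mean of M values (TMM), and a log2 fold change, with its standard error (SE), is always knockout over control. Adjusted p-values come, where no other test is named, from the quasi-likelihood test of edgeR with Benjamini-Hochberg correction over all 14861 genes. The 8 hepatocyte markers (none at 0 in all libraries) summed to 87151 to 97188 CPM in knockout libraries and 75091 to 81631 CPM in control libraries, with 0 of the 8 past the threshold of 0.05. Alb, the albumin gene, made up 71.6% to 79.9% of that sum. The groups did not overlap with Alb and overlapped without it, since the other 7 summed to 18676 to 21244 CPM in knockout libraries and 19285 to 21803 CPM in control libraries, and 5 of the 8 had a log2 fold change below 0. With the replicate number as a block in the fit, Ttr passed at a log2 fold change of 0.41 (adjusted p = 0.0351, or 0.0643 without the block). Of 6 bile duct cell markers 1 passed, Sox9, at 5.17 ± 1.98 CPM in knockout livers and 11.7 ± 1.68 CPM in control livers (adjusted p = 0.0242). Those 6 summed to 30.4 to 44.9 CPM in knockout libraries and 42.2 to 57.0 CPM in control libraries. Without Spp1, 65.3% to 86.6% of the sum, the groups did not overlap (5.86 to 9.21 and 11.8 to 15.8 CPM). That remainder was mostly Sox9, at 3.73 to 8.09 CPM in knockout libraries and 10.3 to 14.2 CPM in control libraries. For Krt19, Krt7, Epcam and Cftr the groups overlapped, with log2 fold changes of 0.10, 0.20, -0.25 and 0.41. Of the 6 markers, 3 had a log2 fold change below 0. In RNA from whole tissue, fewer cells of a type and less RNA per cell cannot be told apart.

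The AU-rich sites of the target mRNAs were read from the longest 3′ UTR annotated for each gene in GENCODE M21 (GRCm38, the assembly of mm10). All 10 mRNAs hold at least 1 UAUUUAU on the mRNA strand, against 29.8% of the 13707 tested genes with an annotated 3′ UTR. The longer UUAUUUAUU, which contains UAUUUAU and AUUUA, is present in 7 of the 10 and in 8.01% of the tested genes, and AUUUA in all 10 and in 69.3%. These mRNAs entered the literature as AU-rich targets, so their motifs are given as a description. The windows below are 30 bases long and centred on a UAUUUAU, show UAUUUAU in capitals, and hold the most copies of AUUUA among the windows so centred in that 3′ UTR. They are shown for the mRNAs whose values the results turn on, and for Vegfa, Birc3 and Pim1 as targets with dense or well-known sites.
Plk3, chr4:117128699-117128728, minus strand: uaacagacauuUAUUUAUugggaugugagc
Pim3, chr15:88865268-88865297, plus strand: ccugcuggggcUAUUUAUuguuuaauuuau
Pim1, chr17:29495685-29495714, plus strand: aaguuuuaaugUAUUUAUUUAUUUAUUUAU
Hif1a, chr12:73946005-73946034, plus strand: augcaccuuuuUAUUUAUUUAUuuuuggug
Birc3, chr9:7857123-7857152, minus strand: agaaauuUAUUUAUUUAUuuaaaagauuua
Vegfa, chr17:46017165-46017194, minus strand: uuguuaucauuUAUUUAUuggugcuacugu
Irs1, chr1:82235404-82235433, minus strand: uaggcuuugaaUAUUUAUgacuaacgcacc

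The sites differed in number and spacing. Pim1 has 4 overlapping copies of UAUUUAU in a 3′ UTR of 1365 bases. Birc3 has 3 in 1525 bases, which begin 195, 199 and 216 bases after the stop codon. Plk3 has the shortest 3′ UTR of the set, 332 bases, with 3 copies. Among the 1045 tested genes whose 3′ UTR is within 20% of that length, 8.42% hold the heptamer. Irs1 has a single copy in 4525 bases, a length at which 61.2% of genes hold one, and Dll4 a single copy in 1329 bases (30.3%). Bcl2 has the longest 3′ UTR, 5086 bases, with 2 copies, and Pim3 has 2 copies in 964 bases. Hif1a, Vegfa and Star have 3 copies each.

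**Figure D1:**
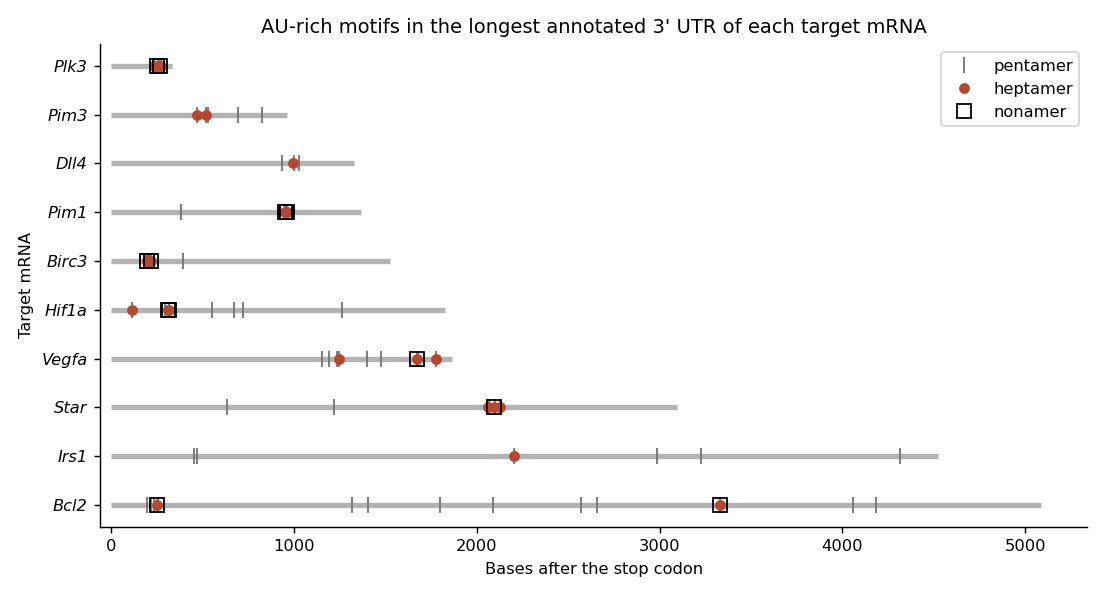
Positions of the pentamer (AUUUA), heptamer (UAUUUAU) and nonamer (UUAUUUAUU) along the longest annotated 3′ UTR of each of the 10 mRNAs, in bases after the stop codon, with the grey bar showing the length of the 3′ UTR. Heptamers stand in a tight cluster in Pim1, Birc3, Plk3 and Star, and singly in Irs1 and Dll4.

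The main comparison asked whether these mRNAs were at another level in knockout livers. At adjusted p under 0.05, edgeR called 0 of the 10, against 5.39% of all tested genes (3.51% higher and 1.88% lower). At an unadjusted p under 0.05 there were 4 of the 10 (Hif1a, Irs1, Plk3 and Pim3), against 21.5% of all genes. DESeq2's Wald test called 3 of the 10, namely Hif1a and Plk3 higher and Irs1 lower, against 11.7% of all genes, and scaling by total counts alone called Irs1, against 11.6%. With the replicate number as a block, 2 passed, Hif1a higher and Irs1 lower, against 6.92% of all genes (4.39% higher and 2.52% lower). The groups did not overlap for Hif1a and Irs1, 2 of the 10, against 15.1% of all genes. The log2 fold change was above 0 for 9 of the 10 (48.4% of all genes), with a median of 0.22 over the 10 and -0.01 over all genes. The 10 and the lists below were chosen with earlier results of these data known, so their shares and medians are given as a description. With library totals as the only scaling, the median of all genes shifted by -0.11, which left 7 of the 10 above 0, against 32.4% of all genes. The number of genes called among all genes was 801, and 256, 394 and 211 without knockout libraries 1, 2 and 3 and 303 and 396 without control libraries 1 and 2.

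**Figure D2:**
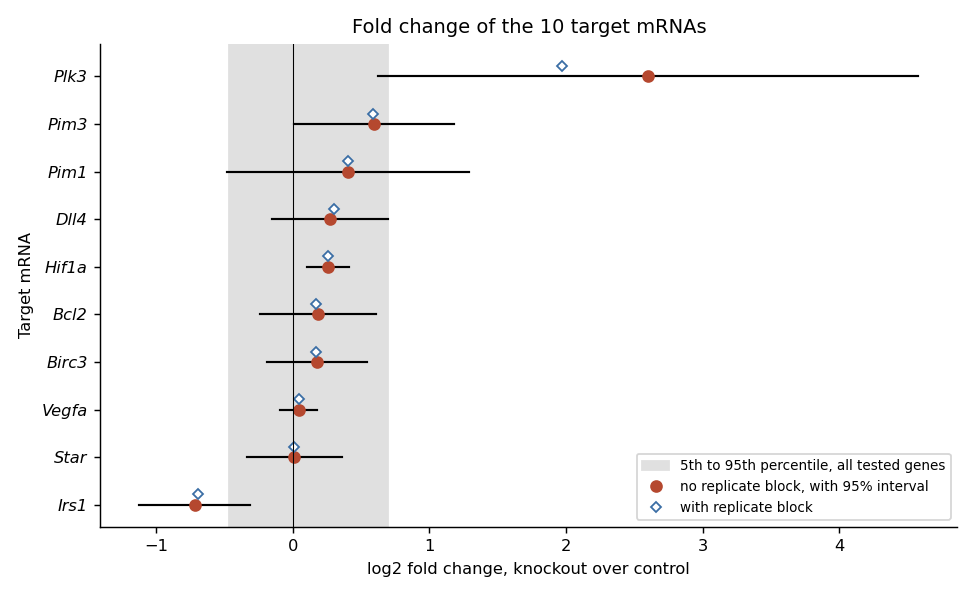
Log2 fold change of knockout over control for each of the 10 mRNAs, as filled circles with 95% intervals from the fit without a replicate block and open diamonds for the fit with it. The grey band spans the 5th to 95th percentile of all tested genes, -0.46 to 0.70, and Plk3 and Irs1 are the members whose estimates lie outside it.

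Irs1 was the one target with a negative log2 fold change, and it passed the test only under some settings. It encodes an adaptor that carries the signal of the insulin and IGF1 receptors to phosphoinositide 3-kinase (chromosome 1, 82233101 to 82291416, minus strand). Knockout libraries 1 to 4 held 33.2, 33.0, 36.8 and 26.5 CPM, against 57.8, 69.0, 49.0 and 37.0 CPM in control libraries 1 to 4. All knockout values lay below all control values, although knockout library 3 and control library 4 nearly touch. This gave a log2 fold change of -0.72 (SE 0.18, 95% interval -1.12 to -0.31, adjusted p = 0.054), and each of the 4 same-numbered pairs was lower in the knockout. With the replicate block the log2 fold change was -0.69 and the adjusted p 0.016. Without control library 4 it was -0.85 (adjusted p = 0.0191), and the other 7 fits that left out 1 library did not pass.

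Insulin receptor signalling, a list of 18 tested genes that includes Irs1, had 0 higher and 0 lower by edgeR, against 5.39% of all genes called. At an unadjusted p under 0.05 there were 6, against 21.5% of all genes, and DESeq2 called 1 higher and 1 lower, against 11.7%. With the replicate block there were 0 and 1, where the 1 is Irs1, against 6.92% of all genes. Under total counts alone there were 0 and 3, against 11.6%. The list's median was 0.10. Irs2, the other main adaptor of hepatocytes, had 46.7 ± 7.25 CPM in knockout livers and 38.4 ± 7.10 CPM in control livers (log2 fold change 0.28, SE 0.15, adjusted p = 0.316). Insr, the receptor itself, had 243 ± 6.49 CPM in knockout livers and 219 ± 37.5 CPM in control livers (adjusted p = 0.464). For Akt2, the kinase downstream, the log2 fold change was -0.02 with a 95% interval of -0.16 to 0.12. Foxo1, a transcription factor restrained by that kinase, had 37.0 ± 4.88 CPM in knockout livers and 42.1 ± 7.94 CPM in control livers (adjusted p = 0.492).

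Hif1a had higher values in every knockout library than in any control library. It encodes the oxygen-regulated subunit of hypoxia-inducible factor 1 (chromosome 12, 73901375 to 73947530, plus strand). Knockout libraries 1 to 4 held 77.4, 72.0, 78.4 and 79.3 CPM, against 61.9, 59.3, 66.8 and 68.7 CPM in control libraries. The difference was small, with a log2 fold change of 0.26 (SE 0.07, 95% interval 0.10 to 0.41, adjusted p = 0.0614, or 0.0475 with the replicate block). Under total counts alone it was 0.15 (adjusted p = 0.206).

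Partners and targets of HIF-1 were counted in separate lists. Of 9 tested HIF subunits and regulators, 0 were higher and 0 lower by edgeR, with a median log2 fold change of -0.02. Hif1a was the 1 gene of that list at an unadjusted p under 0.05, by DESeq2 and with the block (21.5%, 11.7% and 6.92% of all genes). Epas1, the HIF-2 subunit, had 266 ± 32.4 CPM in knockout livers and 282 ± 43.8 CPM in control livers (adjusted p = 0.747). Of 15 hypoxia-induced genes, 2 rose and 0 fell (3 and 0 with the block and by DESeq2), with a median log2 fold change of 0.13. Those 2 of 15 are 13.3%, against 5.39% of all genes, and the 3 of 15 with the block are 20%, against 6.92%. By DESeq2 the share of all genes was 11.7%. Without adjustment, 3 of the 15 had p under 0.05, against 21.5% of all genes. Ero1l, an oxidase of protein folding in the endoplasmic reticulum, rose to 34.4 ± 0.811 CPM in knockout livers, against 24.3 ± 2.15 CPM in control livers (log2 fold change 0.50, SE 0.07, adjusted p = 0.00817), and it passed in all 14 alternative settings. Ldha, a lactate dehydrogenase subunit gene, rose to 1098 ± 60.4 CPM in knockout livers, against 842 ± 63.3 CPM in control livers (0.38, SE 0.08, adjusted p = 0.0283). The call of Ldha was lost in 5 of the 8 fits that left out 1 library, namely those without knockout libraries 1, 2 and 3 and control libraries 1 and 2, where adjusted p was 0.053 to 0.087. Slc2a1, the glucose transporter GLUT1, had 16.5 ± 3.04 CPM in knockout livers and 16.9 ± 1.88 CPM in control livers (adjusted p = 0.907).

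Vegfa had the highest level per length of the 10 in control livers and the smallest relative spread in both groups. It encodes the main secreted growth factor of blood vessel endothelium (chromosome 17, 46016993 to 46032369, minus strand). Knockout libraries held 191.9, 189.2, 188.9 and 190.2 CPM, against 194.3, 172.7, 185.5 and 185.0 CPM in control libraries. The groups overlapped, and the knockout libraries differed among themselves by a coefficient of variation of 0.709%, against 4.81% in control. For Vegfa the log2 fold change was 0.04 with a 95% interval of -0.09 to 0.18 (adjusted p = 0.716), and -0.07 under total counts alone.

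Of 9 tested VEGF ligands and receptors, 0 rose and 1 fell, with a median log2 fold change of 0.07. That 1 of 9 is 11.1%, against 5.39% of all genes, or 6.92% with the block. At an unadjusted p under 0.05 there were 2 of the 9, against 21.5% of all genes. Nrp1, a co-receptor for VEGFA and semaphorins, fell to 89.3 ± 8.95 CPM in knockout livers, against 125 ± 20.3 CPM in control livers (-0.49, SE 0.12, adjusted p = 0.0497). Its call was lost in each of the 8 fits that left out 1 library, where adjusted p was 0.0518 to 0.116, and also with DESeq2's size factors (0.0564) and halved counts (0.0519). Kdr, the main endothelial receptor, had 48.9 ± 9.24 CPM in knockout livers and 45.6 ± 10.4 CPM in control livers (adjusted p = 0.784), and Flt1, another VEGF receptor, had 12.0 ± 1.65 CPM in knockout livers and 10.7 ± 1.70 CPM in control livers (adjusted p = 0.524).

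Dll4, a membrane-bound Notch ligand of endothelial cells, was a low-level transcript (chromosome 2, 119325784 to 119335962, plus strand). Knockout libraries held 6.32, 4.54, 5.11 and 5.71 CPM, against 4.26, 3.42, 6.24 and 3.99 CPM in control libraries. Control library 3 stood among the knockout values, and the groups overlapped. Its log2 fold change was 0.27 (SE 0.19, 95% interval -0.15 to 0.70, adjusted p = 0.439). It was 0.48 without control library 3 (adjusted p = 0.0947) and 0.17 without control library 2 (adjusted p = 0.676). Summed over the 10 endothelial markers, levels were 258 to 370 CPM in knockout libraries and 259 to 359 CPM in control libraries, with 0 of the 10 past the threshold and none at 0 in all libraries. Control library 3 was also the highest control library for that sum, and the part of endothelial RNA in the Dll4 values was not tested. Lyve1 was the 1 endothelial marker to pass with the replicate block (adjusted p = 0.0231, or 0.0549 without it). It had 20.7 ± 0.926 CPM in knockout livers and 12.6 ± 3.79 CPM in control livers. Gm14207 on the opposite strand shares 411 bases with Dll4, and reads of the pair cannot be told apart without a strand setting. Of 14 tested Notch ligands, receptors and targets, 0 were higher and 0 lower by edgeR, with and without the block (6.92% and 5.39% of all genes). An unadjusted p under 0.05 was found for 3 (21.5% of all genes), and DESeq2 called 1 higher and 1 lower (11.7% of all genes). The median log2 fold change of the 14 was 0.04. Jag1, another Notch ligand, had 12.2 ± 3.86 CPM in knockout livers and 7.75 ± 1.48 CPM in control livers (0.65, SE 0.23, adjusted p = 0.134), while Dll1 had 3.70 ± 0.227 CPM in knockout livers and 5.47 ± 1.08 CPM in control livers (-0.56, SE 0.14, adjusted p = 0.0546).

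The survival genes Bcl2 and Birc3 did not pass. Bcl2 guards the outer mitochondrial membrane against apoptosis and was the least abundant member (chromosome 1, 106538178 to 106714274, minus strand). It had 188, 118, 153 and 208 counts in knockout libraries and 116, 137, 186 and 130 counts in control libraries. These correspond to 1.48, 1.03, 1.11 and 1.56 CPM in knockout and 1.07, 1.08, 1.33 and 1.07 CPM in control libraries. Knockout libraries 1 and 4 were the highest of the 8, and the others overlapped (log2 fold change 0.18, SE 0.19, adjusted p = 0.616). Leaving out 1 library gave 0.08 (without knockout library 4) to 0.28 (without knockout library 2), with no call.

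Birc3, also known as cIAP2, is a ubiquitin ligase of the tumour necrosis factor receptor pathway (chromosome 9, 7848699 to 7873186, minus strand). Knockout libraries held 19.3, 12.9, 19.2 and 20.4 CPM, against 16.5, 12.2, 18.2 and 16.5 CPM in control libraries. Library 2 was the lowest of its group in both genotypes, and each knockout library lay above the control library of the same number. With a log2 fold change of 0.18 (SE 0.16), the adjusted p was 0.566, or 0.223 with the replicate block. The value was 0.31 without knockout library 2 and 0.08 without control library 2, with no call.

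Blood cells also express Bcl2 and Birc3. Markers of lymphocytes (9 genes, 0 past the threshold, none at 0 in all libraries) summed to 17.4, 8.81, 9.27 and 19.7 CPM in knockout libraries, against 13.9, 9.09, 11.2 and 14.5 CPM in control libraries. Neutrophil markers (6 genes, 4 tested, 0 past the threshold, none at 0 in all libraries) summed to 53.9, 1.81, 1.42 and 24.0 CPM in knockout and 5.28, 1.40, 2.00 and 10.2 CPM in control libraries. The 8 markers of Kupffer cells and macrophages (0 past the threshold, none at 0 in all libraries) summed to 271, 124, 168 and 350 CPM in knockout and 218, 159, 212 and 220 CPM in control libraries. Knockout libraries 1 and 4, the highest for Bcl2, were the highest of the 8 for all 3 of these sums. Control library 3, the highest control library for Bcl2, was not the highest control library for any of the 3 sums. The lymphocyte sum was mostly Ptprc, a gene of all leukocytes, at 53.3% to 73.4%. Without Ptprc the other 8 lymphocyte markers summed to 5.26, 2.63, 2.68 and 5.24 CPM in knockout libraries, against 5.85, 2.70, 3.80 and 6.79 CPM in control libraries, where control libraries 4 and 1 were the highest. Cd4 was the 1 lymphocyte marker to pass with the replicate block, lower in the knockout (adjusted p = 0.024, or 0.449 without it). The part of blood cell RNA in the Bcl2 and Birc3 values was not tested.

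Relatives of both genes were counted in a list each. Over all genes, edgeR called 5.39%, the fit with the block 6.92%, DESeq2 11.7% and total counts alone 11.6%. At an unadjusted p under 0.05 there were 21.5% of all genes. Of 16 tested BCL2 family genes 0 were higher and 0 lower by edgeR (0 and 1 with the block, by DESeq2 and under total counts alone, and 2 at an unadjusted p under 0.05), with a median log2 fold change of -0.03. For Bcl2l1, which encodes the survival protein BCL-XL, the log2 fold change was -0.01 with a 95% interval of -0.19 to 0.17. Mcl1, another survival gene, had 92.5 ± 10.1 CPM in knockout livers and 96.2 ± 7.09 CPM in control livers (adjusted p = 0.751). Bbc3, the proapoptotic gene also called Puma, passed with the block, at 7.91 ± 2.84 CPM in knockout livers and 11.4 ± 2.61 CPM in control livers (adjusted p = 0.31, or 0.0371 with the block). Of 15 inhibitor of apoptosis genes and partners 0 were higher and 0 lower by edgeR, with and without the block (0 and 1 by DESeq2 and under total counts alone, and 2 at an unadjusted p under 0.05), and the median log2 fold change was 0.04. Xiap, the family member that binds caspases most directly, had 181 ± 18.1 CPM in knockout livers and 177 ± 13.1 CPM in control livers (adjusted p = 0.849).

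**Figure D3:**
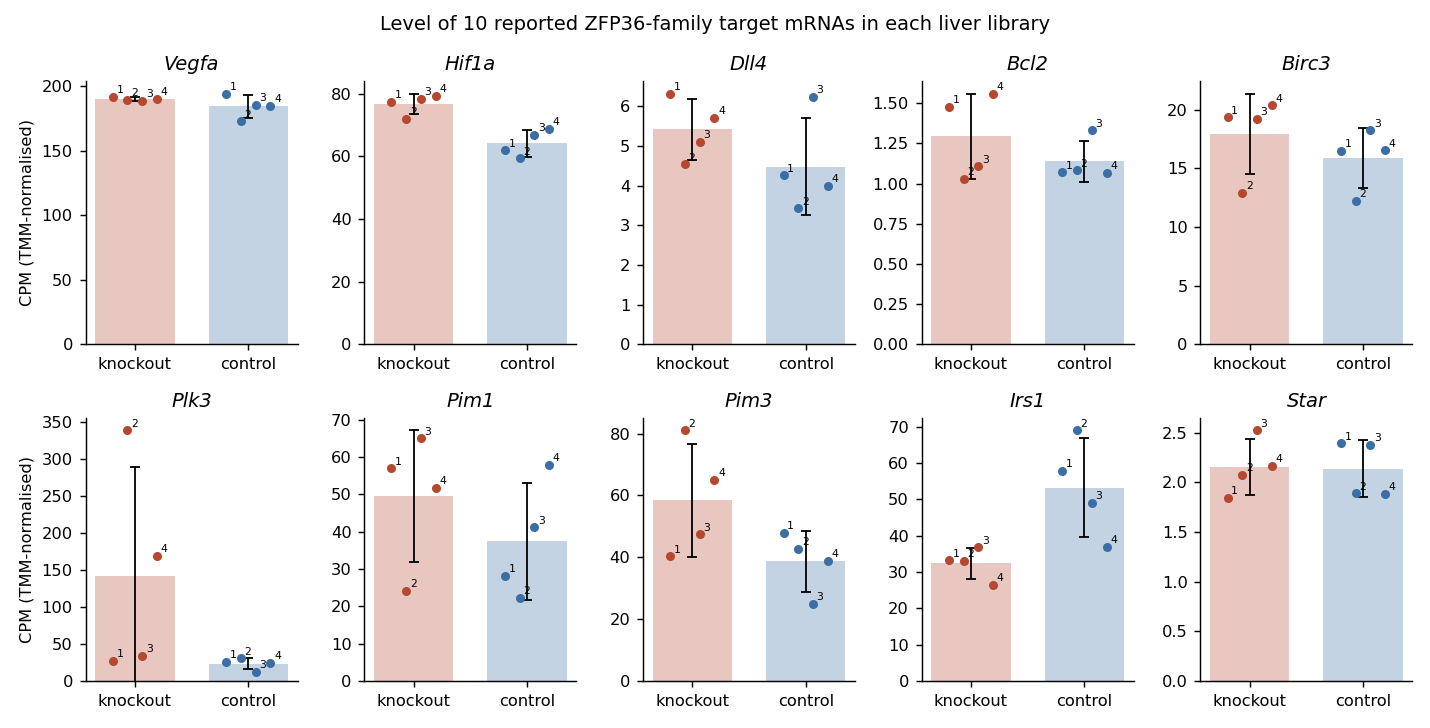
CPM of the 10 mRNAs in each library, with bars for the group mean, error bars for 1 SD (n = 4 each) and numbers for the replicate. The knockout bar of Plk3 has an SD larger than its mean, so its lower end is cut at 0. Irs1 and Hif1a are the panels without overlap between the groups, and the Plk3 panel shows knockout libraries 2 and 4 far above the other 6.

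Plk3 showed the widest spread of the 10. It encodes a polo-like kinase of the stress response (chromosome 4, 117128655 to 117133963, minus strand). Knockout libraries 1 to 4 held 27.4, 338, 34.2 and 169 CPM, against 25.5, 30.5, 12.7 and 24.8 CPM in control libraries. Libraries 2 and 4 of the knockout group were far above all others, while knockout library 1 fell within the control range and knockout library 3 just above it. The highest knockout library was 12.4-fold above the lowest, against 2.40-fold in the control group. The groups overlapped, and the log2 fold change of 2.60 (SE 0.84, 95% interval 0.63 to 4.58) had an adjusted p of 0.13. It was 1.72 without knockout library 2 (adjusted p = 0.259) and 1.97 with the replicate block (adjusted p = 0.221), while DESeq2 gave 2.61 (adjusted p = 0.0106). Each of the 4 same-numbered pairs was higher in the knockout, by 0.10, 3.47, 1.43 and 2.77 on the log2 scale.

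The 2 genes at the 3′ end of Plk3 had their highest values in the same libraries. Tctex1d4 lies on the opposite strand and shares 84 bases with Plk3, among them the Plk3 window printed above. It had 13, 358, 50 and 161 counts in knockout libraries and 4, 6, 5 and 2 counts in control libraries. With so few control counts, Tctex1d4 passed the count filter through the knockout libraries alone, and it was named after its values were seen. Its log2 fold change of 5.09 (SE 1.09, adjusted p = 0.0353) is therefore given as a description. The call was kept without knockout library 1 and without knockout library 2. It was lost in the other 6 fits that left out 1 library (adjusted p up to 0.0936) and without the count filter (0.0576). Tctex1d4 counts were 0.373%, 0.923%, 1.06% and 0.715% of the Plk3 counts in knockout libraries and 0.145%, 0.155%, 0.282% and 0.0662% in control libraries. Btbd19 starts 2929 bases beyond Plk3 on the same strand and had 92, 1549, 214 and 828 counts in knockout libraries, against 121, 132, 131 and 113 counts in control libraries (log2 fold change 2.45, SE 0.85, adjusted p = 0.147). Those were 2.64% to 4.53% of the Plk3 counts in knockout and 3.42% to 7.39% in control libraries. Without a stated strand setting, reads of Plk3 and Tctex1d4 cannot be told apart over the shared bases.

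**Figure D4:**
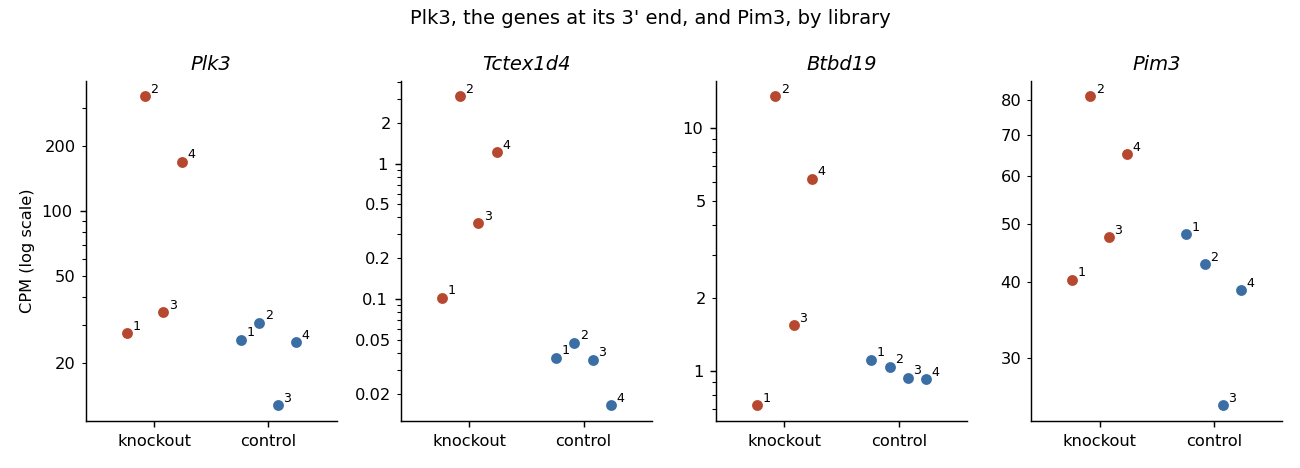
CPM on a log axis for Plk3, its 3′ neighbours Tctex1d4 and Btbd19, and Pim3 in each library, numbered by replicate. In all 4 panels knockout library 2 is the highest and knockout library 4 the second.

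Pim3 and Pim1 encode serine/threonine kinases that promote growth and survival and are active without further phosphorylation. Pim3 (chromosome 15, 88862186 to 88865726, plus strand) had 40.4, 81.1, 47.5 and 65.0 CPM in knockout libraries, against 48.0, 42.8, 25.01 and 38.8 CPM in control libraries. As for Plk3, knockout libraries 2 and 4 were the highest and control library 3 the lowest, but the groups overlapped. For Pim3 the log2 fold change was 0.60 (SE 0.26, 95% interval 0.01 to 1.18, adjusted p = 0.223). None of the 14 alternatives called it, with adjusted p from 0.0819 to 0.393. Its log2 fold change was 0.40 without knockout library 2.

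Pim1 (chromosome 17, 29490753 to 29496112, plus strand) had another order of libraries. It had 57.0, 24.2, 65.1 and 51.7 CPM in knockout libraries, against 28.2, 22.2, 41.2 and 57.9 CPM in control libraries. Knockout library 2, the highest for Pim3, was the lowest knockout library for Pim1, and control library 4 lay among the upper knockout values. Its log2 fold change was 0.40 (SE 0.38, 95% interval -0.48 to 1.29, adjusted p = 0.585). Leaving out 1 library gave 0.23 (without control library 2) to 0.70 (without control library 4), with no call.

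Of the 8 PLK and PIM kinases tested, 0 were higher and 0 lower by edgeR, with and without the replicate block (6.92% and 5.39% of all genes). Plk3 and Pim3 were the 2 at an unadjusted p under 0.05 (21.5% of all genes). DESeq2 called 1, which is Plk3 (11.7% of all genes), and the list's median was 0.33. Pim2, the third member of its family, had 3.31 ± 0.461 CPM in knockout livers and 4.17 ± 0.621 CPM in control livers (-0.33, SE 0.15, adjusted p = 0.241). Plk2, another stress-responsive polo-like kinase, had 12.6 ± 4.84 CPM in knockout livers and 16.2 ± 4.94 CPM in control livers (adjusted p = 0.567). Plk1 and Plk4, which act in mitosis and centriole duplication, had adjusted p = 0.795 and 0.348.

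**Figure D5:**
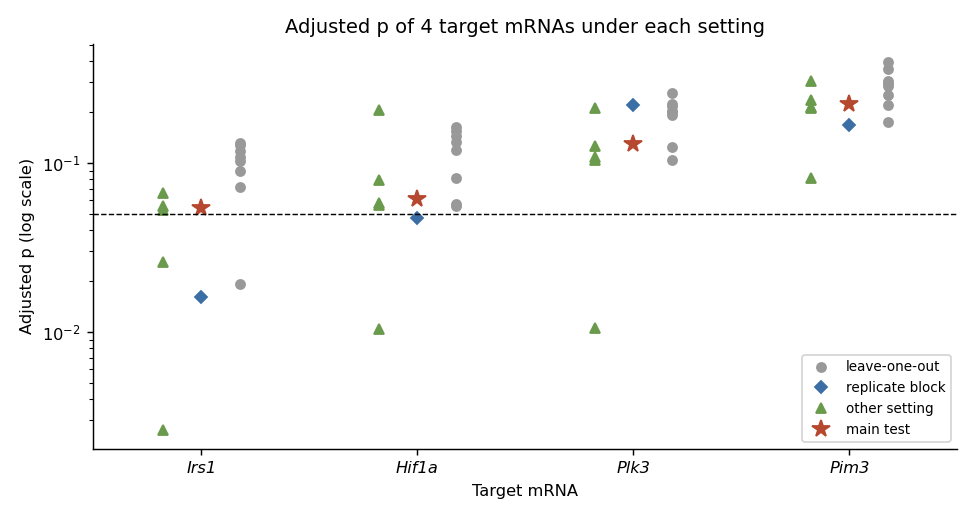
Adjusted p on a log axis for Irs1, Hif1a, Plk3 and Pim3 under the main test (star), the replicate block (diamond), the 8 fits that each left out 1 library (circles) and 5 other settings (triangles), with a dashed line at 0.05. Of the 14 alternatives, 4 place Irs1, 2 place Hif1a, 1 places Plk3 and 0 place Pim3 below the line.

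Star, the transporter that brings cholesterol into mitochondria for steroid synthesis, was low in both groups (chromosome 8, 25806555 to 25815982, plus strand). Knockout libraries held 1.85, 2.08, 2.52 and 2.17 CPM, against 2.39, 1.89, 2.38 and 1.89 CPM in control libraries. The ranges overlapped almost fully. Star had a log2 fold change of 0.01 with a 95% interval of -0.34 to 0.36 (adjusted p = 0.973), so a change of the size seen for Irs1 would lie outside that interval. Adrenal cortex markers were low, with Cyp11b1, Cyp11b2 and Mc2r at 0 in all 8 libraries. The 7 markers together were at 1.87 to 3.58 CPM in knockout libraries and 0.666 to 2.82 CPM in control libraries, near the level of Star. Cyp21a1 made up 51.6% to 94.3% of that sum. The other 6 summed to 0.401 to 0.754 CPM in knockout libraries and 0.079 to 0.322 CPM in control libraries, without overlap. That sum was mostly 1 gene, Akr1b7, at 0.401 to 0.691 CPM in knockout libraries and 0.079 to 0.308 CPM in control libraries (adjusted p = 0.0882). Of the 2 adrenal cortex markers that could be tested, 0 passed the threshold.

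Of 16 tested steroidogenic and START-domain genes 1 rose and 0 fell (2 and 0 with the block), with a median log2 fold change of 0.05. The share called was 6.25%, against 5.39% of all genes, and 12.5% with the block, against 6.92%. DESeq2 called 2 higher and 0 lower, against 11.7% of all genes. Without adjustment, 3 of the 16 had p under 0.05, against 21.5% of all genes. Cyp17a1, which encodes the 17α-hydroxylase of steroid synthesis, rose to 40.7 ± 15.5 CPM in knockout livers, against 5.71 ± 1.45 CPM in control livers (2.83, SE 0.31, adjusted p = 0.00418), and it passed in all 14 alternative settings. Pctp, a START-domain carrier of phosphatidylcholine, had 188 ± 22.9 CPM in knockout livers and 136 ± 21.1 CPM in control livers (0.47, SE 0.13, adjusted p = 0.0623, or 0.0158 with the block).

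Levels between genes were compared per length, as RPKM, the CPM divided by the deposited gene length in kilobases. In knockout libraries the order was Plk3 (59.8), Vegfa (45.5), Pim3 (24.2), Pim1 (18.2), Hif1a (15.5), Birc3 (6.39), Irs1 (3.53), Dll4 (1.57), Star (0.532) and Bcl2 (0.176 RPKM). In control libraries it was Vegfa (44.2), Pim3 (15.97), Pim1 (13.8), Hif1a (12.9), Plk3 (9.83), Irs1 (5.81), Birc3 (5.64), Dll4 (1.30), Star (0.528) and Bcl2 (0.155 RPKM). Neighbours with overlapping ranges were Plk3 and Vegfa, Pim3 and Pim1, and Pim1 and Hif1a in the knockout group. Plk3 held 11.5, 142, 14.4 and 71.0 RPKM in knockout libraries 1 to 4, a range that also overlapped those of Pim3, Pim1 and Hif1a. In the control group all neighbours from Pim3 down to Birc3 overlapped. Irs1 and Birc3 overlapped in control libraries, and in knockout libraries all Irs1 values were below all Birc3 values.

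The other ZFP36 family members and further reported targets were measured alongside. Zfp36 had 54.6, 85.8, 55.4 and 91.3 CPM in knockout libraries and 62.5, 40.7, 73.8 and 69.0 CPM in control libraries, so knockout libraries 2 and 4 were again the highest (log2 fold change 0.22, SE 0.23, adjusted p = 0.62). Zfp36l2 had 59.1, 68.1, 46.8 and 60.5 CPM in knockout libraries and 43.9, 37.9, 59.3 and 44.6 CPM in control libraries (0.34, SE 0.15, adjusted p = 0.231). Of 30 further mRNAs listed as reported targets, 24 could be tested, and 2 rose and 0 fell (2 and 1 with the block, 5 and 0 by DESeq2). The share called was 8.33%, against 5.39% of all genes, and 12.5% with the block, against 6.92%. DESeq2 called 11.7% of all genes. At an unadjusted p under 0.05 there were 8 of the 24, against 21.5% of all genes. The median log2 fold change of the 24 was 0.39, against -0.01 over all genes. This list was chosen with earlier results of these data known, so its shares and median are given as a description. E2f1, a transcription factor gene of S phase entry, rose to 7.15 ± 1.01 CPM in knockout livers, against 4.43 ± 0.342 CPM in control livers (0.69, SE 0.12, adjusted p = 0.0167), lost without knockout library 1 (adjusted p = 0.0545) and without control library 1 (0.051). Fgf21, a hormone gene of fasting and stress, rose to 15.8 ± 6.34 CPM in knockout livers, against 2.93 ± 1.89 CPM in control livers (2.43, SE 0.49, adjusted p = 0.0335), a call kept without knockout library 4 and without control library 3, but lost in the other 6 fits that left out 1 library (adjusted p up to 0.0888) and without the count filter (0.0584). Myc had 13.5 ± 11.9 CPM in knockout livers and 5.13 ± 2.15 CPM in control livers (adjusted p = 0.336). Its knockout libraries held 3.32, 26.1, 3.44 and 21.1 CPM, so libraries 2 and 4 were again the highest, as for Plk3. Control libraries held 3.02, 8.12, 4.53 and 4.85 CPM of Myc. The cyclin gene Ccnd1 had 24.7 ± 4.89 CPM in knockout livers and 24.4 ± 7.86 CPM in control livers (adjusted p = 0.965). Tnf, the classical ZFP36 target of macrophages, had 0.156 ± 0.106 CPM in knockout livers and 0.0915 ± 0.0645 CPM in control livers (adjusted p = 0.549). The 6 that were not tested were the cytokine genes Csf2, Il2, Il3, Il6 and Il10 and the cyclooxygenase gene Ptgs2, with at most 10 counts in a knockout library and 12 in a control library.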

How the data were processed

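Libraries were made from liver RNA with the NEBNext Ultra II kit, per the labels' protocols. The authors deposited raw counts per gene symbol and, per the file headers, a gene length in bases. The build was mm10, per the submitters' processing notes. Aligner, counting tool, annotation and strand setting were not given in the sources used here. In each library 67.4% to 70.8% of the counts from 1 to 20 were even, so halved counts were fitted as an alternative.

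Genes were filtered with filterByExpr (14861 kept, 10378 left out), scaled with TMM and tested with edgeR 4.0.16 (glmQLFit, robust, 6 residual degrees of freedom, threshold 0.05), under R 4.3.3. The procedure was also run on simulated counts drawn independently for each library. These carried no pairing by replicate number, so the run does not show how the test behaves on paired libraries. SE was taken as the size of the log2 fold change over the root of the F statistic, an approximation, and 95% intervals use the moderated degrees of freedom. DESeq2 1.42.0 was an alternative, with its size factors, total counts alone, no filter, halved counts, the replicate block and leaving out each library. Floors of 3 counts are 0.0215 to 0.0277 CPM and cover counting error only. No set test was run.

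Same-numbered libraries of the 2 groups correlated at 0.165, 0.387, 0.306 and 0.402 after subtraction of group means, so the numbers pair the libraries in the data, while the labels name no shared litter or day. The members and lists were chosen with earlier results of these data known. Named genes are the 10 targets, the ZFP36 genes, list members past the threshold, and, chosen after their values were seen, further list members named for their role and the neighbours of Plk3. Of the table's symbols, 24374 are in GENCODE M21. The values of 1 gene of the further reported targets are not reported here.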

Additional observations from a re-analysis of the deposited data

Results flagged for a closer look

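Of 58 groups of 4 libraries examined, 6 held a library whose gap to its nearest neighbour took up most of the range of its group, and chance gives this in about 1 of 20 groups. Knockout library 2 stood apart for Birc3, at 12.9 CPM, below 19.2 to 20.4 CPM in the other knockout libraries, and for the co-receptor gene Nrp1, at 76.0 CPM. Control library 3 stood apart for Bcl2, at 1.33 CPM. Control library 4 stood apart for E2f1, at 4.94 CPM. The summed markers of Kupffer cells and macrophages were lowest in control library 2, at 159 CPM, and the summed stellate cell markers in control library 1, at 174 CPM.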

How the results depend on the processing

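Of the 10 targets, 0 passed under the main test, with DESeq2's size factors, without the count filter and with halved counts. The replicate block called 2 (1 higher, 1 lower), DESeq2's test 3 (2 higher, 1 lower) and total counts alone 1 (0 higher, 1 lower). Fits that left out 1 library called 0 to 1 (0 higher, 0 to 1 lower), the 1 being Irs1 without control library 4. Among all genes, DESeq2's test called 1738 (1014 higher, 724 lower) and total counts alone 1730 (392 higher, 1338 lower), against 521 higher and 280 lower under the main test, and fits that left out 1 library called 211 to 967 (169 to 583 higher, 42 to 384 lower). The sign turned for Vegfa under total counts alone (-0.070), and for Star under total counts alone (-0.10) and in leave-one-out fits (-0.074 to 0.081). The other 8 targets and Zfp36l1 kept their direction in all 14 alternatives. The nonamer in place of the heptamer was held by 7 of the 10 targets and 8.01% of genes, the pentamer by 10 and 69.3%, and the heptamer in any annotated 3′ UTR by 10 and 31.1%. The causes of these shifts were not tested. With the replicate block the targets other than Hif1a and Irs1 did not pass. At about 100 to 200 counts per library, Bcl2 is the member whose precision depth limits most.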
